A study of Mus musculus with 4 samples.

Results

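The transcripts described here are those of 9 mouse genes that neutrophils use for their granules and alarm proteins, *S100a8*, *S100a9*, *Lcn2*, *Ltf*, *Camp*, *Ngp*, *Retnlg*, *Wfdc21* and *Cd177*. They were chosen by symbol and are 9 of the 30905 genes counted. The data came from heterotopic heart grafts collected on day 5, of which 2 were allogeneic (donor strain Balb/C) and 2 were syngeneic (donor strain C57BL/6J). The paper's methods give male C57BL/6J recipients for both groups, no treatment is stated, and a graft holds donor cells together with recipient cells that entered it. Single-cell 3′ profiling on the 10x Chromium platform counted unique molecular identifiers (UMIs, 1 per captured RNA molecule). The 53824 deposited cells stand in a single matrix whose barcodes end in 1, 2, 3 or 4. No label says which graft an ending stands for, so the cells with each ending are called libraries 1 to 4 and given side by side. Allogeneic and syngeneic grafts were not compared, no value has replicates, and no test was made.

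Neutrophils are short-lived white blood cells that reach injured tissue first. They carry antimicrobial proteins in granules that are filled in a fixed order while the cell matures in the bone marrow, so that transcripts of early granules are normally low in mature cells in tissue. S100A8 and S100A9 pair to form calprotectin, a calcium- and metal-binding protein that fills the neutrophil cytosol and acts as an alarmin (an internal protein that signals danger once released). LCN2, LTF, CAMP and NGP belong to the specific granules, which form midway through maturation, and CD177 is a surface protein of neutrophils.

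After filters on genes per cell, mitochondrial UMIs and doublets, 42396 cells in 28 clusters were left, and 3880 cells in 3 clusters were neutrophil-like. The 9 transcripts were kept out of the clustering and of the marker list, so they did not define the class. Each of the 3 clusters held all 10 of its 10 neutrophil markers, among them *Csf3r*, *Cxcr2* and *Mmp9*. Libraries 1 to 4 gave 98, 2746, 253 and 783 neutrophil-like cells, which were 0.999%, 22.0%, 2.70% and 7.29% of their cells. The clusters were filled unevenly. Of the neutrophil-like cells of library 2, 1906 lay in cluster 5, and of those of library 4, 775 lay in cluster 19. Cluster 14 held 87, 838 and 245 of those of libraries 1, 2 and 3. The median depth of neutrophil-like cells was 3601, 3858, 2889 and 3015 UMIs in libraries 1 to 4, against 5383.5, 5099, 8981 and 12793.5 in other cells. Pairs of libraries shared 40 to 60 barcodes, and 3 of the 1134 neutrophil-like barcodes of libraries 1, 3 and 4 also occurred in library 2.

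*S100a8* (chr3:90668978-90670035, plus strand, GRCm38) and *S100a9* (chr3:90692632-90695721, minus strand) are neighbours with 22596 bases between them. The other genes of the set lie on chromosomes 2 (*Lcn2*), 9 (*Ltf*, *Camp* and *Ngp*), 16 (*Retnlg*), 11 (*Wfdc21*) and 7 (*Cd177*). The bases before the start of *S100a8* and *S100a9* are shown because these were the most abundant members and moved together, and those of *Ngp* because it differed most between the neutrophils of libraries 2 and 4. They come from RefSeq promoters of GRCm38.p6, without bases in annotated exons, and are written from 5′ to 3′ on the strand of the gene. Capitals mark TTNNGNAA, a short C/EBP motif, read on both strands. C/EBP factors, among them the products of *Cebpe* and *Cebpd*, are known to drive granule genes as neutrophils mature.
*S100a8*, chr3:90668821-90668977, plus strand: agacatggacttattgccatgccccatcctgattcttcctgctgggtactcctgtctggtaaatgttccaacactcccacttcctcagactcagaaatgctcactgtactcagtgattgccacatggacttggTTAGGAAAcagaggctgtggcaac
*S100a9*, chr3:90695722-90695971, minus strand: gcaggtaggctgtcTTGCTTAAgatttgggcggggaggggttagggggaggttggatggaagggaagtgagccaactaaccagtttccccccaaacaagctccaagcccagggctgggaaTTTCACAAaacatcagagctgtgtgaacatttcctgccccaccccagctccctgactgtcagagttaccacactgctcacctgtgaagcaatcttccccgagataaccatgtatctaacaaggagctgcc
*Ngp*, chr9:110419558-110419746, plus strand: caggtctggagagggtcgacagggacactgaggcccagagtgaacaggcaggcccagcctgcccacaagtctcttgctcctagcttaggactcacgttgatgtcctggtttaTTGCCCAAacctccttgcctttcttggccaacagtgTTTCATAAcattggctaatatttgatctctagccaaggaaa

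The 157 bases before *S100a8* hold 1 match and the 250 before *S100a9* hold 2, and 23.8% and 36.9% of all 27018 promoters hold one in stretches of the same length. *Ngp* has 2 matches in 189 bases, beside 28.4% of promoters. Of the 7 members with such a stretch, 6 have a match. Beside the matches of *Ltf*, *Retnlg* and *Cd177* stand 34.0%, 36.9% and 36.9% of promoters of the same length. *Camp*, with 89 bases searched, has none, beside 12.9%. *Lcn2* and *Wfdc21* had no usable stretch and were not searched. Among the 7 searched, the NF-kB consensus, a motif of inflammatory induction, was found before *Cd177* only, beside 7.01% of promoters of that length. These matches describe the letters and were not tested as binding sites.

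The 9 transcripts together made up 20.1%, 20.8%, 6.93% and 4.08% of all non-mitochondrial UMIs of neutrophil-like cells in libraries 1 to 4. Levels below are in CPM, the share of a transcript among the non-mitochondrial UMIs of the same cells on a scale where 10000 CPM is 1%, and since the method counts 3′ ends a level does not depend on transcript length. Over all libraries the sum was 173665 CPM (exact Poisson 95% interval 173456 to 173876, counting error only), and it was 65903 CPM without library 2. Libraries 1 and 2 stood high and libraries 3 and 4 low, and library 1 stood at 119617 CPM without 4 cells described below.

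The alarmins *S100a8* and *S100a9* were the most abundant members in every library. *S100a8* stood at 71898, 82223, 31847 and 15833 CPM in libraries 1 to 4. *S100a9* stood at 90807, 84605, 35666 and 23311 CPM. In library 1, 48.4% of the UMIs of *S100a8* and 44.2% of those of *S100a9* lay in 4 cells. Library 4 was lowest for both, and *S100a9* exceeded *S100a8* in all 4, with 0.972 UMIs of *S100a8* per UMI of *S100a9* in library 2 and 0.679 in library 4. Nearly every neutrophil-like cell of library 2 had a UMI of *S100a8* (99.96%), beside 82.2% of those of library 4.

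The specific-granule transcripts spread further. *Lcn2*, which encodes a protein that binds bacterial iron carriers, stood at 5767, 9299, 809 and 491 CPM. *Ltf*, which encodes the iron-binding lactoferrin, stood at 2487, 134, 34.0 and 21.6 CPM. *Camp*, the gene of the antimicrobial peptide cathelicidin, stood at 11823, 136, 5.03 and 7.88 CPM. Library 1 was far above the rest for *Ltf* and *Camp*, whose levels in libraries 3 and 4 rest on 4 to 52 UMIs each. *Ngp*, a granule protein of the cystatin family, stood at 8653, 2049, 2.52 and 8.71 CPM, and the value of library 3 is 2 UMIs (interval 0.305 to 9.09 CPM).

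*Retnlg*, a small secreted protein of the resistin family, stood at 7119, 24701, 702 and 871 CPM. *Wfdc21*, a WAP-domain protein, stood at 2191, 3731, 245 and 248 CPM. *Cd177* stood at 305, 837, 16.4 and 13.3 CPM. In library 1 the 4 cells richest in each transcript held 55.4% of the UMIs of *Retnlg*, 54.3% of those of *Wfdc21* and 87.6% of those of *Cd177*. Without these cells *Retnlg* stood at 3509 CPM and *Wfdc21* at 1263 CPM in library 1. All 3 transcripts were highest in library 2, and for *Wfdc21* and *Cd177* the intervals of libraries 3 and 4 overlapped.

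**Figure D1:**
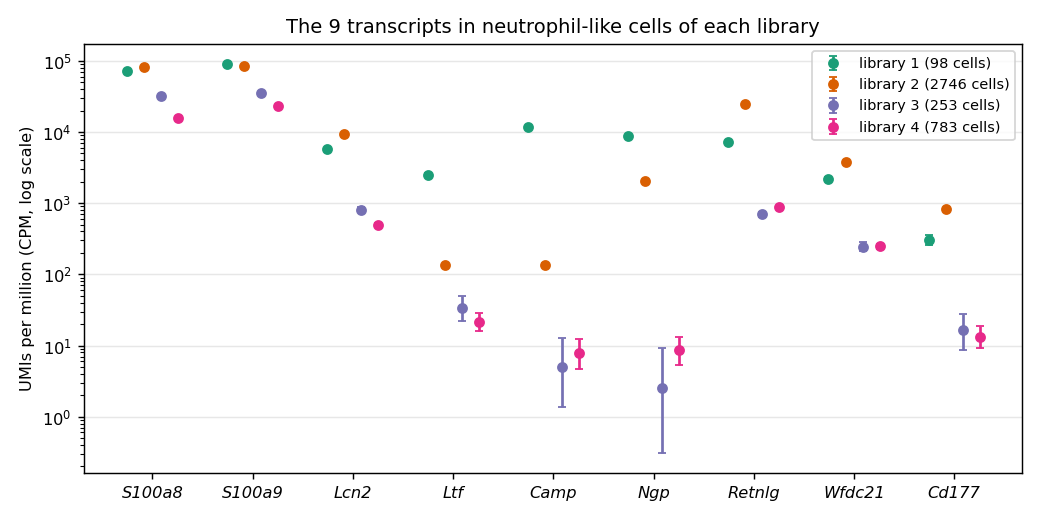
Levels of the 9 transcripts (x axis) in neutrophil-like cells in CPM on a log scale (y axis), with 1 point per library and exact Poisson 95% intervals that cover counting error only. Every transcript is higher in library 2 than in libraries 3 and 4, from 3.63-fold (*S100a9*) to 235-fold (*Ngp*) over library 4, and *Ltf*, *Camp* and *Ngp* peak in library 1. These folds are plain ratios, and that of *Ngp* was 110 with 10 CPM added to both. The level of *Ngp* in library 4 rests on 21 UMIs, 15 of them in 1 cell.

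The levels of *Camp*, *Ngp* and *Ltf* in library 1 rest on 4 of its 98 cells, named after their values were seen. These cells were deep, with 39453, 20189, 15265 and 12586 UMIs, against a median of 3601 in neutrophil-like cells of library 1. They held 3491, 1289, 161 and 57 UMIs of *Camp*, and the other 94 cells held 4 in all. The same cells held 2197, 953, 458 and 45 UMIs of *Ngp* and 560, 369, 121 and 2 of *Ltf*. Without them *S100a8* and *S100a9* stood at 46806 and 63860 CPM, below library 2. *Camp* then stood at 11.9 CPM, *Ngp* at 23.8 CPM and *Ltf* at 0 UMIs. *Lcn2* stood at 1579 CPM and *Cd177* at 47.7 CPM, and the sum of all 9 was 119617 CPM without the 4 cells. Genes of maturing granulocytes were mixed in them: 3 of the 4 cells held 55 UMIs of *Cebpe*, and 2 cells each held the 13 of *Ms4a3* and the 9 of *Prtn3*, while *Elane* had 1 UMI and *Mpo*, *Ctsg* and *Gfi1* had 0. *Mki67*, a proliferation gene, had 13 UMIs in 1 cell. *Csf3r* and *Cxcr2*, receptors of mature neutrophils, stood at 206 and 80.0 CPM in them, against 1559 and 879 CPM in the other 94. In library 2 the 4 cells richest in *Camp* held 41.3% of its 1570 UMIs.

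All 9 transcripts were at least 2-fold higher in library 2 than in library 4 (10 CPM added to both), beside 7.54% of the 4785 genes above 20 CPM in either library. *Camp*, *Ngp* and *Cd177* were below 20 CPM in libraries 3 and 4 and passed this filter only through library 2. The filter thus fixed the direction of their difference, though not its size. Against library 3 all 9 were again 2-fold higher, with the same limit, beside 3.87% of 5534 genes, and 24.9% of these genes were at least 2-fold lower. Other specific-granule genes followed in part: 5 of 8 were higher and 2 lower in library 2 than in library 4, with *Chil3*, a chitinase-like protein, at 3178 against 115 CPM, *Mmp8*, a collagenase, at 848 against 125 CPM, and *Lyz2*, the lysozyme of myeloid cells, at 342 against 2178 CPM. Of the 6 genes of gelatinase granules and secretory vesicles 4 were higher and none lower, with *Mmp9* at 1341 against 533 CPM. *Olfm4*, counted among the 5, and *Mmp25*, among the 4, stood at 19.9 and 4.98 CPM in library 4. They passed the filter only through library 2, which fixed their direction.

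Lists outside the granules differed among themselves. Among the other alarmin and S100 genes 1 of the 6 above 20 CPM was 2-fold higher in library 2 than in library 4 (*S100a6*, 6314 against 2269 CPM) and none lower. None of the 6 receptor genes of mature neutrophils was 2-fold higher and 2 were lower, among them *Cxcr4* (188 against 461 CPM). Of the 9 activation genes 1 was higher, *Cxcl3* at 5708 against 292 CPM, and 3 were lower, among them *Il1b* at 5259 against 18601 CPM, beside 15% of all genes at least 2-fold lower. Of the transcription factors none of the 5 above 20 CPM was higher and 1 lower, and *Cebpb* stood at 4792 and 6181 CPM. The 1 lower, *Cebpa*, stood at 5.56 against 21.2 CPM and passed the filter only through library 4. Of the receptors and partners of the proteins 2 of the 4 above 20 CPM were higher and none lower than in library 4 (7.54% of all genes were higher), and none was higher and 1 lower than in library 3 (3.87% higher, 24.9% lower). The 2 higher, *Cd36* (259 against 10.4 CPM) and *Pecam1* (86.2 against 13.7 CPM), passed the filter only through library 2, which fixed their direction. The 1 lower, *Lrp1* (16.7 against 74.2 CPM), passed only through library 3. *Cd36* and *Pecam1* were most abundant in endothelial-like cells. The endothelial gene *Cdh5* stood at 45.7 to 305 CPM in the subclusters filled by library 2 and at 6.85 and 8.94 CPM in those of library 4. The part of endothelial RNA in these differences was not tested. Of the acute phase genes 2 of 4 were higher and 1 lower, with *Lrg1*, a secreted glycoprotein, at 900 against 129 CPM. The other higher one, *Orm1*, stood at 24.6 against 0.415 CPM and passed the filter only through library 2. Azurophil granules are made earliest, and of their 6 genes 1, *Cd63*, was above 20 CPM (364 against 248 CPM). *Mpo*, the gene of myeloperoxidase, stood at 2.36, 0.782, 0 and 0.415 CPM in libraries 1 to 4, and *Ctsg* had no UMI in the neutrophil-like cells of any library.

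The neutrophil-like cells were clustered again, without the 9 transcripts, into 7 subclusters, most of which came from a single library. Library 2 filled subclusters 1 (947 cells, led by *Chil3*, *Cxcl3*, *Ecm1*, *Csf3* and *Mmp19*), 2 (748 cells, led by *Ifitm6*, *Prok2*, *Anxa1*, *Ggt1* and *Mmp8*), 3 (674 cells, led by *Ero1l*, *Bnip3*, *Cldn1*, *Higd1a* and *Hspa1b*) and 5 (374 cells of low depth with haemoglobin and endothelial genes). Library 4 filled subclusters 4 (interferon-response genes such as *Ifit3*) and 7 (MHC class II genes such as *H2-Ab1*), and libraries 1 and 3 shared subcluster 6.

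Subcluster 2 had the highest level of all 9 transcripts within library 2, and they took 30.6% of its UMIs against 16.2% in subcluster 1, 13.1% in subcluster 3 and 13.2% in subcluster 5. *S100a8* stood at 123309 CPM in subcluster 2, 61431 in 1, 52167 in 3 and 52084 in 5. *Ngp* stood at 3836, 775, 1016 and 1648 CPM in the same order. *Camp* stood at 324, 11.1, 16.5 and 82.0 CPM, and *Ltf* at 295, 26.8, 22.8 and 114 CPM. *Retnlg* and *Lcn2* differed less between subclusters 2 and 1, at 30112 and 22511 CPM for *Retnlg* and 12017 and 10565 CPM for *Lcn2*. The highest over the lowest subcluster was 4.95-fold for *Ngp*, 29.1-fold for *Camp* and 13.0-fold for *Ltf*, and with coarser and finer subclustering (resolutions 0.3 and 0.8) these were 2.47 and 20.4, 11.5 and 28.1, and 7.89 and 17.5. These are plain ratios, and with 10 CPM added to both that of *Camp* in subcluster 2 over 1 was 15.8. Few cells carried much of *Camp* and *Ltf*. In all neutrophil-like cells of library 2 they fell from 136 to 39.1 CPM and from 134 to 61.1 CPM without the 1% richest in the members. With cells thinned to 1000 UMIs, 5.52% of subcluster 2 and 1.41% of subcluster 1 had a UMI of *Camp*. For *Ltf* these shares were 7.60% and 2.16%. Subcluster 3 was lowest for *Lcn2* (3852 CPM), *Wfdc21* (1498 CPM, against 5399 in subcluster 2) and *Cd177* (253 CPM, against 1157).

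**Figure D2:**
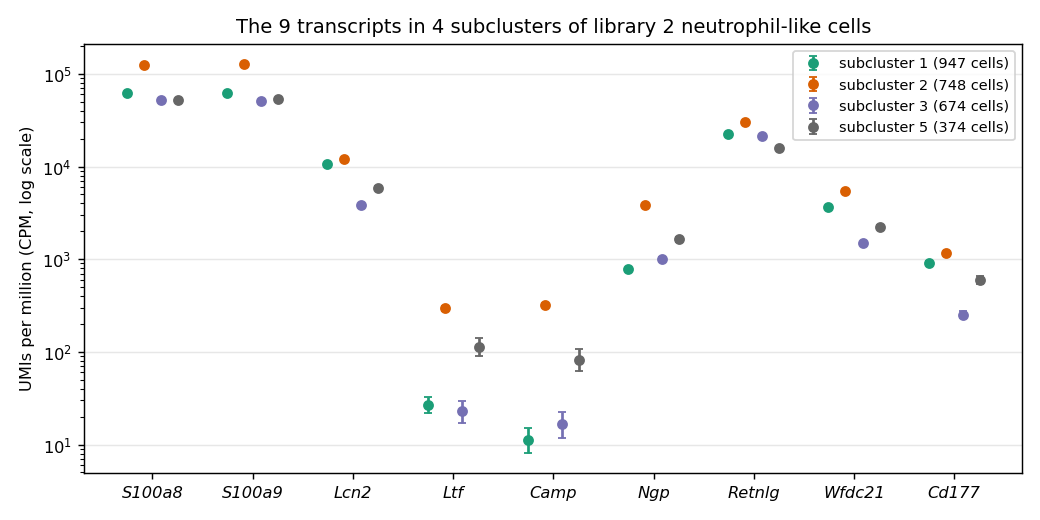
Levels of the 9 transcripts (x axis) in 4 subclusters of the neutrophil-like cells of library 2 in CPM on a log scale (y axis), with exact Poisson 95% intervals. Subcluster 2 is highest for every transcript, by the widest margin for *Camp* (324 against 11.1 CPM in subcluster 1) and *Ltf* (295 against 26.8 CPM). A UMI of *Camp* was found in 14.2% of the cells of subcluster 2 and one of *Ltf* in 19.8%, so these levels rest on few cells.

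Between subclusters 2 and 1, 5 of the 9 transcripts were at least 2-fold higher in subcluster 2 (10 CPM added to both), beside 1.76% of 3982 genes. *Camp*, at 11.1 and 16.5 CPM in subclusters 1 and 3, passed the filter of 20 CPM only through subcluster 2. The filter thus fixed the direction of its difference from both, though not its size. All 9 activation genes were at least 2-fold lower, beside 4.32% of genes. *Ccl3* and *Ccl4*, chemokines of activated myeloid cells, stood at 455 and 599 CPM in subcluster 2 and at 5310 and 5995 CPM in subcluster 1. Against subcluster 3, 8 of the 9 transcripts were higher (8.78% of 4125 genes) and 7 of the 9 activation genes lower (14.1%). *Cxcr2* stood at 739, 651 and 290 CPM in subclusters 2, 1 and 3. These subclusters were formed from the same cells, so the listed genes may have shaped them, and the differences are a description.

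In library 4 the interferon-led subcluster 4 and the MHC class II-led subcluster 7 held less of every abundant member than library 2. *S100a9* stood at 27780 and 11694 CPM in subclusters 4 and 7, *Retnlg* at 1177 and 77.6 CPM, and *Wfdc21* at 308 and 91.1 CPM. Subcluster 6 held cells of both other libraries, and *S100a8* stood at 59116 CPM in its 86 cells of library 1 and at 32326 CPM in its 244 cells of library 3.

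Within 2472 neutrophil-like cells of library 2, each thinned to 1000 UMIs, *S100a8* and *S100a9* rose and fell together across cells (Pearson's r = 0.891). Cells with a UMI of *Camp* were few and held the other members compared here more often. Of the 72 cells with a UMI of *Camp*, 72.2% also had one of *Ngp* (95% interval 60.4% to 82.1%), against 29.8% of the cells without *Camp*. *Ltf* was found in 31.9% of the 72 cells and in 2.71% of the others. *Cd177* was found in 61.1% and 39.8%, *Wfdc21* in 93.1% and 79.4%, and *Lcn2* in 98.6% and 91.1%. *Retnlg* differed little, at 95.8% and 92.2%. The cells share 1 library and 1 depth, so these values describe that library only.

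Outside neutrophil-like cells the summed level was 64.6, 3832, 43.2 and 189 CPM in libraries 1 to 4. Library 2 stood 88.7 times above library 3, the lowest. Without library 2 the highest of the remaining libraries stood 4.26 times above the lowest, and the sum over all other cells fell from 893 to 111 CPM. Neutrophil-like cells held 94.6%, 87.8%, 92.1% and 78.8% of the UMIs of the 9 transcripts in the cells that were kept. Cells left out as doublets, not counted here, held 2806, 281840, 7699 and 10756 such UMIs in libraries 1 to 4. Those left out for mitochondrial UMIs held 2260, 11997, 7547 and 1987.

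In library 2 the 6 other named classes had similar means and medians of *S100a8* and *S100a9* per cell. T/NK-like, cardiomyocyte-like, smooth muscle-like, pericyte-like, endothelial-like and macrophage-like cells had means of 9.56 to 14.0 UMIs of *S100a8* and *S100a9* together, and medians of 9 to 11, while their median depth ran from 822 to 13941 UMIs. In T/NK-like cells, which are not known to make these proteins, the 9 transcripts had a median of 12 UMIs per cell. Their variance over cells was 1.81 times the mean, the lowest of the 6 classes. It was 3.09 times in cardiomyocyte-like, 4.18 in smooth muscle-like, 13.5 in pericyte-like, 25.9 in endothelial-like and 42.2 in macrophage-like cells. Single endothelial-like and macrophage-like cells held up to 611 and 310 UMIs. A UMI of *S100a8* was found in 98.8% of T/NK-like cells (median depth 4323 UMIs) and in 99.96% of neutrophil-like cells (median depth 3858 UMIs), so in library 2 the share of cells with a UMI did not separate them. With 1000 UMIs per cell the shares were 64.8% and 99.7%. In libraries 1 and 3 the named other classes had a median of 0 UMIs of *S100a8* and *S100a9*, and in library 4 medians of 0 to 1. Their highest means were 0.325, 1.01 and 2.48 UMIs in libraries 1, 3 and 4. The last 2 are those of macrophage-like and monocyte-like cells. Their means of all 9 transcripts fell from 1.06 to 0.231 and from 2.98 to 1.63 UMIs without the richest 1% of cells.

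**Figure D3:**
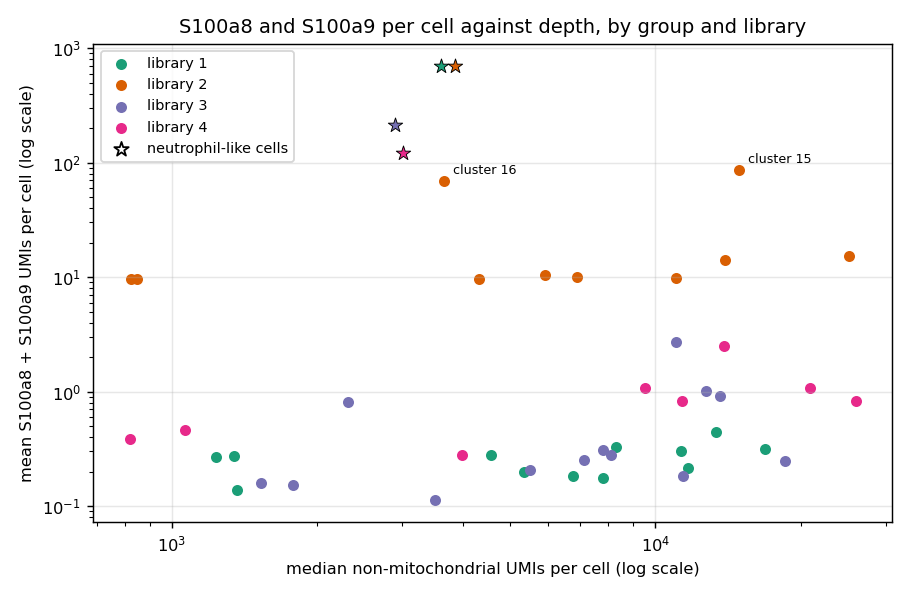
Mean UMIs of *S100a8* and *S100a9* per cell (y axis) against the median depth of the cells (x axis), both on log scales, for each group of at least 50 cells in each library. Stars are neutrophil-like cells. The named classes of library 2 form a flat line at 9.56 to 14.0 UMIs over depths from 822 to 13941 UMIs, above the other libraries, and clusters 15 and 16 stand above that line.

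In library 2 the count rose less than depth. Endothelial-like cells were split by depth into 4 sets of equal size. From the shallowest to the deepest set the median depth rose from 1835 to 16106 UMIs, and the mean of *S100a8* and *S100a9* from 8.63 to 12.9 UMIs, so that their level fell from 4633 to 669 CPM. In the same sets *Lcn2* went from 1.04 to 8.76 UMIs per cell. In smooth muscle-like cells *S100a8* and *S100a9* went from 8.46 to 10.8 UMIs per cell, and in the unnamed cluster 18 from 9.03 to 26.1 (median 9 to 14).

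The shares of the abundant *S100a8*, *S100a9* and *Retnlg* among the 9 transcripts were close to those in neutrophil-like cells of library 2 in T/NK-like, smooth muscle-like, cardiomyocyte-like and macrophage-like cells. They were less so in endothelial-like and pericyte-like cells. *S100a8* made up 39.6% of their UMIs in neutrophil-like, 40.3% in T/NK-like, 38.3% in smooth muscle-like, 37.6% in cardiomyocyte-like and 37.9% in macrophage-like cells, and 31.5% and 30.5% in endothelial-like and pericyte-like cells. *Retnlg* made up 10.6% in T/NK-like and 11.6% in cardiomyocyte-like cells. *Lcn2* was less close, at 4.48% in neutrophil-like, 6.26% in T/NK-like, 6.31% in macrophage-like, 8.85% in cardiomyocyte-like and 9.97% in smooth muscle-like cells. The last value was 6.81% without the 1% of cells richest in the members. The 10 neutrophil markers, which are not members, were compared in the same way. In T/NK-like cells the members stood at a median of 1.22% of their level in neutrophil-like cells, and the markers also at 1.22%. The medians were 4.48% and 4.67% in cardiomyocyte-like cells and 0.476% and 0.484% in smooth muscle-like cells. In macrophage-like cells they were 0.615% and 0.987%, in endothelial-like cells 0.684% and 0.750%, and in pericyte-like cells 0.541% and 0.808%. Droplets also catch free RNA of lysed cells, and its part in these counts was not tested. A share of cells with a UMI at the level of T/NK-like cells is therefore not taken here to show that a class made the transcript.

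**Figure D4:**
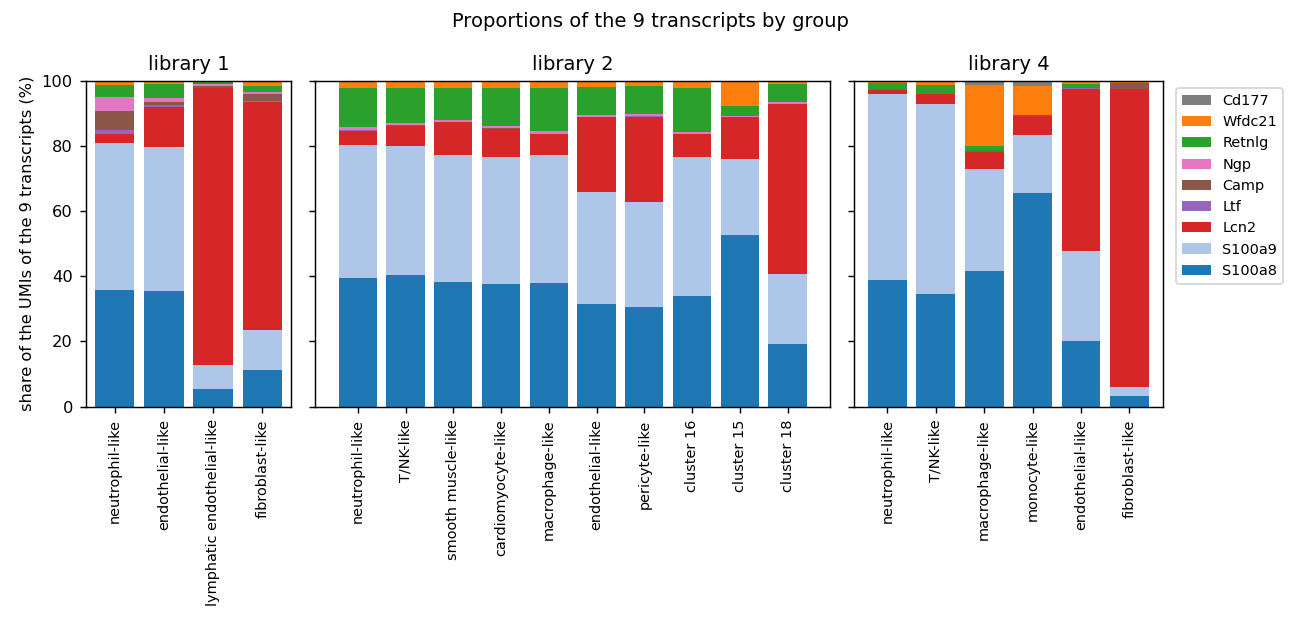
Share of each transcript among the UMIs of the 9 transcripts (y axis, percent, stacked to 100) by group, in libraries 1, 2 and 4. Bars of T/NK-like, smooth muscle-like, cardiomyocyte-like and macrophage-like cells of library 2 resemble the neutrophil-like bar apart from a larger share of *Lcn2*. *Lcn2* takes 91.3% in fibroblast-like cells of library 4 and *S100a8* takes 65.6% in monocyte-like cells of library 4.

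*Lcn2* departed from the neutrophil proportions in several classes. In fibroblast-like cells of library 4 it stood at 466 CPM (455 to 477), beside 491 CPM in neutrophil-like cells there. It made up 91.3% of the UMIs of the 9 transcripts, against 1.20%. Without the 1% of cells richest in the members these levels were 381 and 473 CPM. The median fibroblast-like cell there held 0 UMIs of *Lcn2*, and the 10% of cells richest in it held 80.1% of its UMIs. Of these 562 cells, 108 (19.2%) held 10 or more UMIs of *Lcn2*, whereas none of the 1407 T/NK-like cells of the library did (0 of 1407 cells, exact upper bound 0.262%). Fibroblast-like cells stood at 49.5 CPM in library 1 (21.7 CPM without the richest 1%) and 6.82 CPM in library 3. Most of them lay in different clusters. Cluster 4 had 1870 cells of library 1 and 485 of library 3, cluster 9 had 301 and 1505, and cluster 23 had 557 of library 4. Library 4 and its kind of fibroblast-like cell therefore cannot be told apart here, nor for *Saa3* and *Camp* below. Libraries 1 and 3 shared clusters 4 and 9, and their levels were not split by cluster. *S100a9* in the fibroblast-like cells of libraries 1, 3 and 4 stood at 8.70, 6.38 and 15.5 CPM.

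Lymphatic endothelial-like cells held *Lcn2* at 206 CPM (185 to 228) in library 1 and 156 CPM (139 to 174) in library 3, and it made up 85.3% and 86.2% of the UMIs of the 9 transcripts. The median cell held 0 UMIs of *Lcn2* in both libraries, and the 10% of cells richest in it held 61.7% and 79.1% of its UMIs. Other endothelial-like cells held *Lcn2* at 7.03, 431, 2.34 and 85.9 CPM in libraries 1 to 4, and the value of library 4 was 34.5 CPM without the 1% of cells richest in the members. These too were different clusters, mostly cluster 1 in libraries 1 and 3, cluster 3 in library 2 and cluster 22 in library 4. In library 2 *Lcn2* made up 22.9% of the 9 in endothelial-like cells and 26.3% in pericyte-like cells, against 4.48% in neutrophil-like and 6.26% in T/NK-like cells. Cardiomyocyte-like and smooth muscle-like cells lay between, at 8.85% and 9.97%. A few cells carried most of it, since the 10% of endothelial-like cells of library 2 richest in *Lcn2* held 71.6% of its UMIs, with up to 600 in 1 cell. The 640 endothelial-like cells of library 4 had 10 cells with 10 or more UMIs, and no cell of library 4 was named endothelial-like with doublets kept.

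Unnamed clusters of library 2 also held *Lcn2*. Cluster 18, led by *Prg4*, *Cxcl5* and *Ptx3*, stood at 759 CPM, and *Lcn2* made up 52.2% of its UMIs of the 9. The 10% of its cells richest in *Lcn2* held 76.1% of the *Lcn2* UMIs. Cluster 6, with endothelial and haemoglobin genes among its leading genes, stood at 2975 CPM, with a median of 849 UMIs per cell, and the 10% of its cells richest in *Lcn2* held 91.1% of its UMIs. *Saa3*, another acute phase gene, stood at 2517 CPM in the fibroblast-like cells of library 4, against 78.7 and 11.3 CPM in those of libraries 1 and 3. Other acute phase genes ran otherwise in libraries 1, 3 and 4, with *Cp* at 361, 211 and 344 CPM and *Steap4* at 106, 30.6 and 33.6 CPM. In macrophage-like cells of library 4 *Saa3* stood at 2875 CPM and *Lcn2* at 3.64 CPM.

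**Figure D5:**
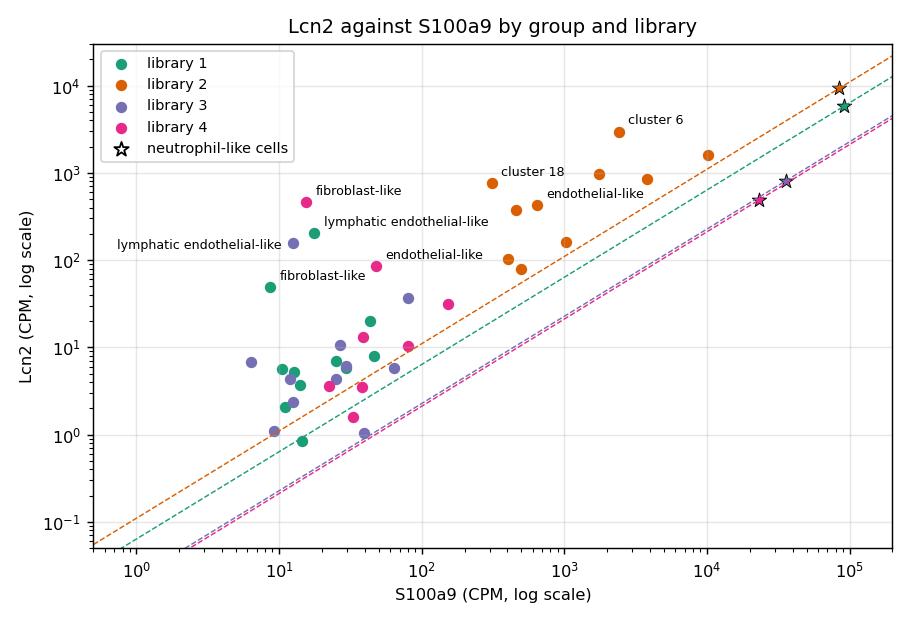
*Lcn2* (y axis) against *S100a9* (x axis) in CPM on log scales, for each group of at least 50 cells with a UMI of both in each library. Stars are neutrophil-like cells and dashed lines carry their ratio through the plot. Fibroblast-like cells of library 4 (466 CPM of *Lcn2* and 15.5 CPM of *S100a9*) and both lymphatic endothelial-like groups lie far above the line of their library.

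*S100a8* exceeded *S100a9* in monocyte-like and macrophage-like cells of library 4 and in cluster 15. Monocyte-like cells, of which 4560 of 4563 came from library 4, held there *S100a8* at 144 CPM and *S100a9* at 38.9 CPM, 3.70 UMIs per UMI of *S100a9* (3.53 to 3.87) against 0.679 in neutrophil-like cells, and 3.49 without the 1% of cells richest in the members. Without those cells the levels were 69.4 and 19.9 CPM. Macrophage-like cells of library 4 stood at 29.8 and 22.4 CPM, and at 25.6 and 15.4 CPM without their richest 1%. In T/NK-like cells of library 4 the ratio was 0.591. A UMI of *S100a8* was found in 33.6% of monocyte-like cells (median depth 13845.5 UMIs) and in 18.3% of T/NK-like cells (11342 UMIs), and in 6.50% and 2.08% after thinning to 1000 UMIs. Cluster 15, unnamed and led by *Arg1*, *Ccl24* and *Ccl9*, held *S100a8* at 3958 CPM and *S100a9* at 1760 CPM in library 2. A few cells carried much of this, with a mean of 85.9 and a median of 16 UMIs of both per cell, and 3098 and 992 CPM without the richest 1%. Its 78 cells in library 3 stood at 177 and 64.3 CPM, but 91.6% of the *S100a8* UMIs there lay in 5 cells.

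*Wfdc21* also took a larger share of the 9 transcripts in these cells than in neutrophil-like cells. It stood at 19.6 CPM in monocyte-like and 13.5 CPM in macrophage-like cells of library 4, and made up 8.94% and 18.9% of the 9, against 0.608% in neutrophil-like cells. Of its UMIs in macrophage-like cells 40.7% lay in 5 cells, and the level was 8.38 CPM without the richest 1%. It stood at 557 CPM in cluster 15 of library 2, where 57.9% of the 856 cells had a UMI, and 24.8% after thinning. *Cd177* stood at 26.2 and 40.2 CPM in cluster 15 of libraries 1 and 3, beside 305 CPM (47.7 without the 4 cells above) and 16.4 CPM in their neutrophil-like cells, but these are 38 and 35 UMIs.

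*Camp* was also found in fibroblast-like cells of library 4, at 9.94 CPM (8.39 to 11.7) against 7.88 CPM in neutrophil-like cells there. Of the 562 cells 13.5% had a UMI of it (median depth 26011 UMIs), and 0.377% of macrophage-like cells did (20860 UMIs), and no cell held more than 10. Of the 43 pericyte-like cells of library 4, 9 had a UMI of *Camp* (12 UMIs in all). After thinning the shares in fibroblast-like and macrophage-like cells were 1.38% and 0.0756%. It made up 1.95% of the 9 transcripts there, against 0.0193% in neutrophil-like cells of the library. *Camp* stood at 1.49 and 0.695 CPM in fibroblast-like cells of libraries 1 and 3.

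Cluster 16 of library 2 stood apart. Its 10 leading genes were *Gm26870*, *Snhg9*, *Cxcl5*, *Cxcl3*, *Cxcl1*, *Prg4*, *Timp4*, *Rab44*, *Csf3* and *Gm47283*. Of these *Prg4* and *Cxcl5* also led cluster 18, *Timp4* the endothelial-like cluster 3, and *Cxcl3* and *Csf3* neutrophil-like subcluster 1. The cluster stayed unnamed, with 3 of 8 endothelial markers found. Its 1027 cells held 89.2 UMIs of the 9 transcripts per cell. *S100a8* made up 33.9% of these, *S100a9* 42.9%, *Retnlg* 13.5% and *Lcn2* 6.77%. In neutrophil-like cells of library 2 these shares were 39.6%, 40.7%, 11.9% and 4.48%. Cluster 16 had 0.789 UMIs of *S100a8* per UMI of *S100a9*, against 0.972 in those cells. In cluster 16 the 9 transcripts stood at a median of 9.85% of their neutrophil level and the neutrophil markers at 15.8%. The part of neutrophils caught with other cells in these droplets was not tested.

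Among the receptors and partners of the proteins only *Tlr4* was highest in neutrophil-like cells. *Tlr4*, a receptor of calprotectin, stood at 47.8 to 102 CPM in neutrophil-like cells, above the 31.1 CPM of macrophage-like cells of library 4. *Cd36*, which binds calprotectin, was highest in endothelial-like cells of library 2 at 3791 CPM. *Pecam1*, the partner of CD177 on endothelium, was highest in endothelial-like cells of library 3 at 1089 CPM. *Lrp1*, a receptor of lactoferrin, was highest in fibroblast-like cells of library 1 at 1088 CPM, and *Ager*, the receptor of S100 proteins, did not exceed 12.0 CPM in any of the 47 groups of a class or cluster in a library.

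Over these 47 groups the 5 other genes whose pattern was most like the mean of the 9 were *Gm5483* (Pearson's r = 0.946), *Il1f9* (0.907), *Rab44* (0.903), *Stfa2l1* (0.896) and *Mmp9* (0.894), from log2(CPM + 10) of 11276 genes. The groups share libraries, and *Mmp9* and *Stfa2l1* were also among the neutrophil markers. Within the set, *Retnlg* was closest to the mean (0.970) and *Camp* farthest (0.744). Each member is itself part of that mean, which raises its value, so these are not comparable with the values of the 5 other genes.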

How the data were processed

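The authors deposited 1 matrix of UMI counts per gene and cell, made with Cell Ranger 3.0.0 (file header) on mm10, and it holds the cells of all 4 libraries, whose total counts ran from 96020294 to 166079145 UMIs. The submitters' notes also list CASAVA 1.8 and Seurat. Barcode endings were not paired with grafts, so all cells are 1 pooled sample with no replicates, no groups were compared and no test was run.

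A filter on genes (over 200 per cell) and on mitochondrial UMIs (under 20%) passed 44626 cells. The 5% most like simulated doublets within each library (50 neighbours) were left out, which left 42396. After log scaling, 2000 variable genes without the 9 transcripts, 10 principal components and 30 neighbours gave a Jaccard graph for Leiden clustering (resolution 0.8, seed 20; subclusters 0.5). A cluster was named where at least 60% of a marker list, and at least 3 markers, were found. It stayed unnamed where another list had more markers among its 10 leading genes, as in clusters 10 and 17. The same held where depth was low and no marker was among the leading genes. The 60% rule was set after the clusters were seen. CPM are summed UMIs as a share of non-mitochondrial UMIs (10000 CPM is 1%). Folds used 10 CPM added to both sides, for genes at 20 CPM or more in either. Intervals are exact Poisson or Clopper-Pearson at 95% and cover counting error only. Shares of cells were repeated with each cell thinned to 1000 UMIs, without shallower cells. Groups under 50 cells were not described, apart from counts.

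The members and lists were chosen with earlier results of these data known. All members, any gene of the listed sets, the 5 genes most like the members and the 5 leading genes of each subcluster could be named; leading genes of clusters outside the neutrophil-like class, *Cdh5* and genes of the 4 cells of library 1 were named after their values were seen. Promoter bases came from RefSeq (GRCm38.p6). Pooled levels, their intervals, clustering and naming were tried on cells simulated from pooled class profiles. These cells held no doublets and differed within a class only by depth and counting error, unlike the real cells. Doublet removal, thinning and subclustering were not tried on them. Python 3.11.15 was used with numpy 2.4.6, scipy 1.17.1, scikit-learn 1.9.0, igraph 0.11.9 and leidenalg 0.10.2. Alternatives were doublets kept, other filters, resolutions and scalings, the 9 transcripts among the variable genes, and each library left out.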

Additional observations from a re-analysis of the deposited data

Results flagged for a closer look

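Cells left out for a mitochondrial share of 20% or more, which no comparison used, also held the 9 transcripts. Their mean was 0.853 UMIs per cell in library 1 (2651 cells), 15.9 in library 2 (753 cells, median 11), 2.08 in library 3 (3625 cells) and 0.992 in library 4 (2003 cells). These values are above the limit that a count of 0 allows and stood highest in library 2, as in the cells that were kept.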

How the results depend on the processing

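The summed level was 173665 CPM in neutrophil-like cells and 893 CPM in other cells, and the highest library stood 88.7 times above the lowest in other cells. With doublets kept these values were 158612 CPM, 1056 CPM and 58.9. With at least 500 genes per cell they were 176009 CPM, 886 CPM and 96.0, and with the 9 transcripts among the variable genes 173905 CPM, 879 CPM and 84.4. With no mitochondrial limit the other cells stood at 899 CPM and the ratio was 60.4. As a mean of CPM per cell the values were 131069 CPM, 2101 CPM and 80.8, and over the UMIs of all other genes neutrophil-like cells stood at 210164 CPM. Leaving out 1 library at a time gave 65903 to 200647 CPM, 111 to 1325 CPM and ratios of 4.26 to 112, each lowest without library 2. All 63 alternatives for levels of single transcripts, 13 of 23 for shares and 5 of 18 for ratios of subclusters moved beyond the counting interval or 1.5 times. The order of the pooled levels, computed with doublets kept, under both scalings and with each library left out, changed in the run without library 2. The share of *Lcn2* in endothelial-like cells of library 4 could not be computed with doublets kept.

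No paired analysis was possible because the cells carry no sample label and no result comes from a test. With 1 pooled matrix, differences between libraries cannot be told apart from those between grafts, strains, cell recovery or depth. Counts of a few UMIs, as for *Camp* and *Ngp* in libraries 3 and 4, limit those levels.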
